A study of Mus musculus with 17 samples.

Results

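A set of 10 chemokines and receptors that guide lymphocytes into and within lymphoid tissue were followed in the spinal cord of mice with targeted experimental autoimmune encephalomyelitis (EAE): Cxcl13 and Cxcr5, Ccl19 and Ccr7, Cxcl12 and Cxcr4, Cxcl16 and Cxcr6, and Ccl20 and Ccr6. They were chosen by gene symbol among the array's probe sets annotated to 1 gene. Of the 10 genes, 9 had such a probe set, 14 probe sets in all, among 18194 measured genes. Ccl19 had 1 probe set, which is annotated to 10 genes, so that Ccl19 was not analysed here.

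Chemokines are small secreted proteins that bind receptors coupled to Gi proteins and draw cells up a gradient. CXCL13, made by stromal and follicular dendritic cells and by some myeloid cells, draws B cells and follicular helper T cells that carry CXCR5 into follicles. CCL19 and CCL21 draw naive T cells and mature dendritic cells that carry CCR7 into the T cell zone. CXCL12 retains many cell types that carry CXCR4 in bone marrow and at perivascular sites. CXCL16 exists as a membrane-bound and a shed form and binds CXCR6 on activated T cells, and CCL20 binds CCR6 on Th17 cells, B cells and some dendritic cells. In the inflamed central nervous system, CXCL13 is known from B cell-rich aggregates in the meninges, and CCL20 from the choroid plexus.

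RNA was measured in 17 female mice, C57BL/6 and 8 weeks old by the labels (the study's methods name C57BL/6J), with 1 array per mouse. By the course given in the methods, the EAE mice were older than 8 weeks when the cord was taken. Whether the naïve mice were of the same age at sampling is not clear from the labels, so that age cannot be told apart from EAE. Of them, 6 were naïve and non-treated. In targeted EAE, mice were immunized with MOG35-55 in complete Freund's adjuvant, weeks later received TNF-α and IFN-γ into the thoracic cord through a laminectomy, and were given pertussis toxin. Of these mice, 5 received the isotype control antibody (palivizumab) and 6 the humanized anti-RGMa antibody, which binds repulsive guidance molecule a, each at 10 mg/kg intravenously from 9 days post-induction (DPI). At 14 DPI, 4.5 mm of cord around the injection site was taken. The naïve mice had none of the immunization, surgery, cytokines, toxin or antibody, so that these cannot be told apart in a comparison of EAE with naïve cord. Both EAE groups carried all of them and differed in the antibody. The values are those of bulk tissue, in which fewer cells of a type and less RNA per cell cannot be told apart.

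Astrocyte, neuron and oligodendrocyte markers were above background in every group. In the naïve mice 6 of 7 B cell markers and 9 of 10 T cell markers had a mean at or below the highest signal of Y-linked genes, which female mice lack. These 6 Y-linked genes (13 probe sets, 221 values) reached 6.25 on the log2 scale, with a median of 3.17, and served here as the measure of background. Array median signals ranged from 132 to 145 in naïve mice, 137 to 165 in isotype control mice and 136 to 157 in anti-RGMa mice. Skeletal muscle markers stood high in isotype control replicates 3, 4 and 5 (list means of 9.11, 13.25 and 9.53 on the log2 scale) against 4.05 to 8.24 in the other 14 arrays, and the part of this in the results was not tested.

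The sequences before the transcription start of 5 of the genes are shown for 4 that rose in EAE and for Ccl20, which did not. They come from RefSeq on the build GRCm38.p6, each covering 250 bases upstream on the gene's own strand, and capitals mark motif matches on either strand. Of the 10 genes, 7 had an entry in the table, with 8 entries in all (Ccr6 has 2), and Cxcr5, Ccr7 and Cxcl16 had none.
Cxcl13, chr5:95956689-95956938 (+), with TATAAA beginning 46 bases upstream of the start: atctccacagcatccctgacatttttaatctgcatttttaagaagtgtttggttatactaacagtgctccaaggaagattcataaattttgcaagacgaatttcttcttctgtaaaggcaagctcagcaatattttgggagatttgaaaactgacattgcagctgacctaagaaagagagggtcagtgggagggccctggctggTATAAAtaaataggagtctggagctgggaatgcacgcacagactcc
Cxcl12, chr6:117168285-117168534 (+), with GGGCGGG beginning 188, 34, 17 and 12 bases upstream, the last 2 overlapping: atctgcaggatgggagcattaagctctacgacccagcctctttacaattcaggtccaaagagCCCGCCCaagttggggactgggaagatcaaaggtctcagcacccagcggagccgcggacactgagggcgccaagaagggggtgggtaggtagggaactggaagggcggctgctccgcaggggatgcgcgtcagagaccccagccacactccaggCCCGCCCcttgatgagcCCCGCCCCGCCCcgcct
Cxcr4, chr1:128592300-128592549 (−), with GGGCGGG 96 and 76 bases and TATAAA 32 and 30 bases upstream, the last 2 overlapping on opposite strands: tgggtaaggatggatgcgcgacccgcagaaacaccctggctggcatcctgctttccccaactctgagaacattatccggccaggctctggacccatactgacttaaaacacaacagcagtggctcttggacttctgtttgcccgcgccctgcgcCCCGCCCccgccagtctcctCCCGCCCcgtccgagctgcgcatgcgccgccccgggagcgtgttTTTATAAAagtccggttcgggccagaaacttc
Ccl20, chr1:83116516-83116765 (+), with the NF-kB motif 80 bases upstream: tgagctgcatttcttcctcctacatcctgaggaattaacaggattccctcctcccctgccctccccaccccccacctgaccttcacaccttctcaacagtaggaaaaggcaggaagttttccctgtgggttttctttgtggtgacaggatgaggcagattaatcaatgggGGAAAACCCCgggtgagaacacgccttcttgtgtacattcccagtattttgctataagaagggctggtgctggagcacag
Ccr6, second entry, chr17:8242276-8242525 (+), with the NF-kB motif 81 and 80 bases upstream, overlapping: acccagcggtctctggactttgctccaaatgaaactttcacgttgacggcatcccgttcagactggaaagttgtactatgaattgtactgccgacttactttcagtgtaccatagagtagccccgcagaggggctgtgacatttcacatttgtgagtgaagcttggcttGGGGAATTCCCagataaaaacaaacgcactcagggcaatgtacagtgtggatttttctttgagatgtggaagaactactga
Among all 32851 promoters of the table, 12.4% held TATAAA, 23.4% GGGCGGG and 7.25% the NF-kB motif. Also searched were 2 copies of GAAA with 2 bases between them, as in interferon response elements (2.98% of all promoters), found before Ccl19, and TTCNNNGAA (7.02%), found in the first Ccr6 entry, and Cxcr6 held no match to any of the 5. A match is a description of these letters and does not show that a factor binds there.

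In the EAE cord of isotype control mice, 8 of the 9 measured genes rose over naïve cord, Ccl20 being the exception. The rise spanned both sides of the ligand and receptor pairs: Cxcl13, Cxcl12 and Cxcl16 among ligands and Cxcr5, Ccr7, Cxcr4, Cxcr6 and Ccr6 among receptors. By limma with an adjusted p under 0.05, 24.6% of all genes were higher in this comparison. The groups did not overlap for 8 of the 9 genes, against 18.3% of all genes higher without overlap. The median log2 difference was 3.40 over the 9 genes and -0.04 over all genes. In anti-RGMa mice, which were compared with the same naïve arrays, the same 8 genes were higher than in naïve mice (background 20.3%), with a median of 2.96 over the 9 genes, and 7 did not overlap (background 13.9%).

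**Figure D1:**
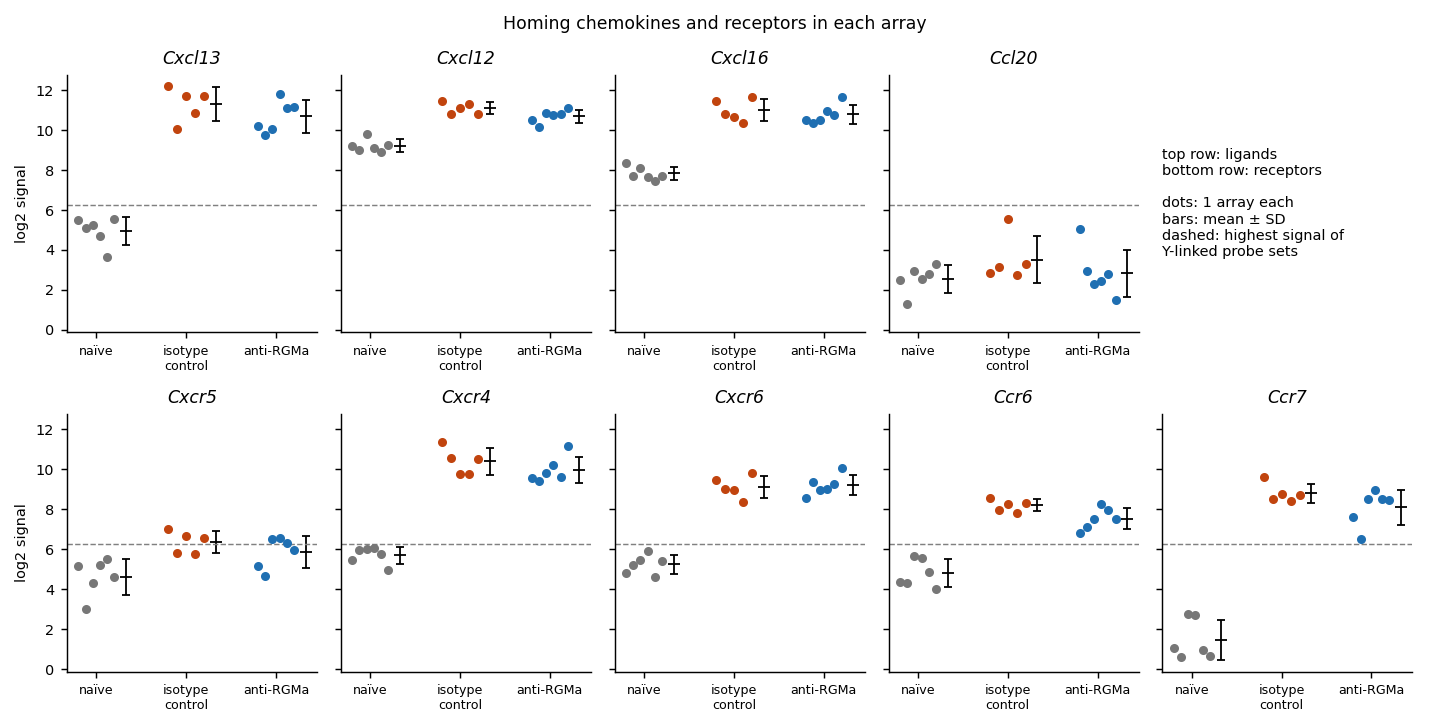
Log2 signal of the 9 measured genes in each array (dots) with mean ± SD (bars) in naïve (n = 6), isotype control (n = 5) and anti-RGMa (n = 6) mice, ligands above and receptors below. The dashed line is the highest log2 signal of Y-linked probe sets, 6.25. All EAE arrays lie above all naïve arrays for 7 genes, the naïve arrays of 7 genes lie under the dashed line, and every Ccl20 array does.

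The ligand of the B cell follicle, Cxcl13 (probe set 1417851_at), had log2 signals of 3.64 to 5.54 in naïve mice (median 5.17), of 12.19, 10.07, 11.70, 10.86 and 11.72 in isotype control replicates 1 to 5, and of 9.73 to 11.83 in anti-RGMa mice (median 10.67). Every EAE array lay above every naïve array, and the EAE groups overlapped. The log2 difference from naïve was 6.35 (SE 0.45, adjusted p = 2.8e-08) in the isotype control group and 5.73 (SE 0.43, adjusted p = 6.1e-08) in the anti-RGMa group. Since the naïve signals lay in the range of the Y-linked probe sets, the size of the ratio depends on the offset: it was 81.7-fold with none and 39.8-fold with 32 added to each signal.

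Its receptor gene Cxcr5 stood close to background in every group, with naïve log2 signals of 3.03 to 5.52 (median 4.87), isotype control signals of 7.03, 5.80, 6.67, 5.76 and 6.59, and anti-RGMa signals of 4.67 to 6.59 (median 6.14). Only 3 of 5 isotype control and 3 of 6 anti-RGMa arrays exceeded the highest Y-linked signal. The isotype control group was higher than naïve by 1.74 (SE 0.45, adjusted p = 0.00409) and the anti-RGMa group by 1.23 (SE 0.43, adjusted p = 0.0300), with overlap between the anti-RGMa and naïve arrays. All naïve Cxcr5 signals lay below the highest Y-linked one, and with the offset of 32 the differences were 0.98 and 0.66. With any of naïve replicates 2 and 3 and anti-RGMa replicates 3, 4, 5 and 6 left out, the second difference lay between 0.91 and 1.22 and its adjusted p was above 0.05.

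Ccr7, the receptor for CCL19 and CCL21, had naïve log2 signals of 0.63 to 2.78 (median 1.01), well inside the Y-linked range. It reached 9.63, 8.53, 8.76, 8.44 and 8.73 in the isotype control replicates and 6.52 to 8.95 (median 8.48) in anti-RGMa mice, so that no EAE array approached the naïve ones. The log2 difference was 7.35 (SE 0.49, adjusted p = 1.2e-08) for isotype control and 6.63 (SE 0.46, adjusted p = 2.6e-08) for anti-RGMa. Because the naïve signals were at background, the isotype control ratio was 163-fold with no offset and 13.7-fold with the offset of 32.

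Cxcl12 (probe set 1448823_at) was well above background in every array. Its naïve signals ranged from 8.90 to 9.82 (median 9.17), its isotype control signals were 11.45, 10.79, 11.13, 11.31 and 10.82, and its anti-RGMa signals ranged from 10.13 to 11.09 (median 10.79). The isotype control group was 3.68-fold above naïve (log2 difference 1.88, SE 0.19, adjusted p = 8.8e-07) and the anti-RGMa group 2.78-fold (1.47, SE 0.18, adjusted p = 9.9e-06), and neither overlapped with naïve. Its receptor Cxcr4 went from 4.98 to 6.05 in naïve mice (median 5.86) to 11.39, 10.57, 9.78, 9.79 and 10.53 in isotype control mice and 9.44 to 11.16 in anti-RGMa mice (median 9.73). These were differences of 4.70 (SE 0.34, adjusted p = 2.8e-08) and 4.27 (SE 0.32, adjusted p = 5.9e-08), without overlap. All naïve Cxcr4 signals lay below the highest Y-linked one, and the differences were 4.04 and 3.61 with the offset of 32.

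Cxcl16 (probe set 1418718_at), like Cxcl12, exceeded the background in all arrays. Naïve signals ran from 7.47 to 8.37 (median 7.71), isotype control signals were 11.47, 10.80, 10.68, 10.35 and 11.65, and anti-RGMa signals ran from 10.34 to 11.65 (median 10.64). The isotype control group was 8.92-fold above naïve (log2 difference 3.16, SE 0.27, adjusted p = 1.5e-07) and the anti-RGMa group 7.78-fold (2.96, SE 0.25, adjusted p = 2.3e-07). Cxcr6 (probe set 1425832_a_at) rose without overlap from 4.62 to 5.90 in naïve mice (median 5.34) to 9.45, 9.01, 8.96, 8.36 and 9.80 in isotype control mice and to 8.56 to 10.08 in anti-RGMa mice (median 9.16). The differences were 3.87 (SE 0.29, adjusted p = 5.3e-08) and 3.97 (SE 0.28, adjusted p = 3.0e-08), or 3.06 and 3.15 with the offset of 32, from naïve signals at background.

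Ccl20 and its receptor parted. Ccl20 had naïve log2 signals of 1.27 to 3.31 (median 2.68), isotype control signals of 2.84, 3.13, 5.57, 2.73 and 3.31, and anti-RGMa signals of 1.51 to 5.03 (median 2.63), so that every array lay below the highest Y-linked signal and no difference passed the test (isotype control against naïve 0.95, SE 0.60, adjusted p = 0.204; anti-RGMa against naïve 0.27, SE 0.57, adjusted p = 0.747). A level of this transcript was not detectable over background on these arrays. Ccr6 had naïve signals of 4.03 to 5.68 (median 4.61), isotype control signals of 8.58, 7.99, 8.29, 7.81 and 8.33, and anti-RGMa signals of 6.81 to 8.25 (median 7.53), with no overlap between EAE and naïve. It differed from naïve by 3.40 (SE 0.32, adjusted p = 4.6e-07) and 2.74 (SE 0.30, adjusted p = 3.9e-06). All its naïve signals lay below the highest Y-linked one, and with the offset of 32 these were 2.41 and 1.84.

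In the exact permutation test, two-sided, 8 genes reached p = 0.00433 between isotype control and naïve, the smallest that 462 splits allow, and Ccl20 had p = 0.0996. Of the comparisons of anti-RGMa with naïve, 7 reached an exact p of 0.00216, the smallest that 924 splits allow. Cxcr5 had an exact permutation p of 0.0325 (0.0516 adjusted over the 27 exact tests) and Ccl20 one of 0.695.

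Between the antibodies, 0 of the 9 genes passed the threshold that the study used (a fold change over 1.5 with an unadjusted p under 0.05), or an adjusted p under 0.05. Of all genes, 2.72% were lower and 1.22% higher by the former, 0.0055% higher (1 gene) and 0% lower by the latter. Of the 9, 1 had an unadjusted p under 0.05, against 15.8% of all genes. Of the 9 log2 differences, 8 were below 0 (48.1% of all genes), with a median of -0.50 over the 9 and 0.01 over all genes. Ranges of the 2 EAE groups overlapped for all 9 genes; 0.566% of all genes lay lower without overlap and 0.242% higher.

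**Figure D2:**
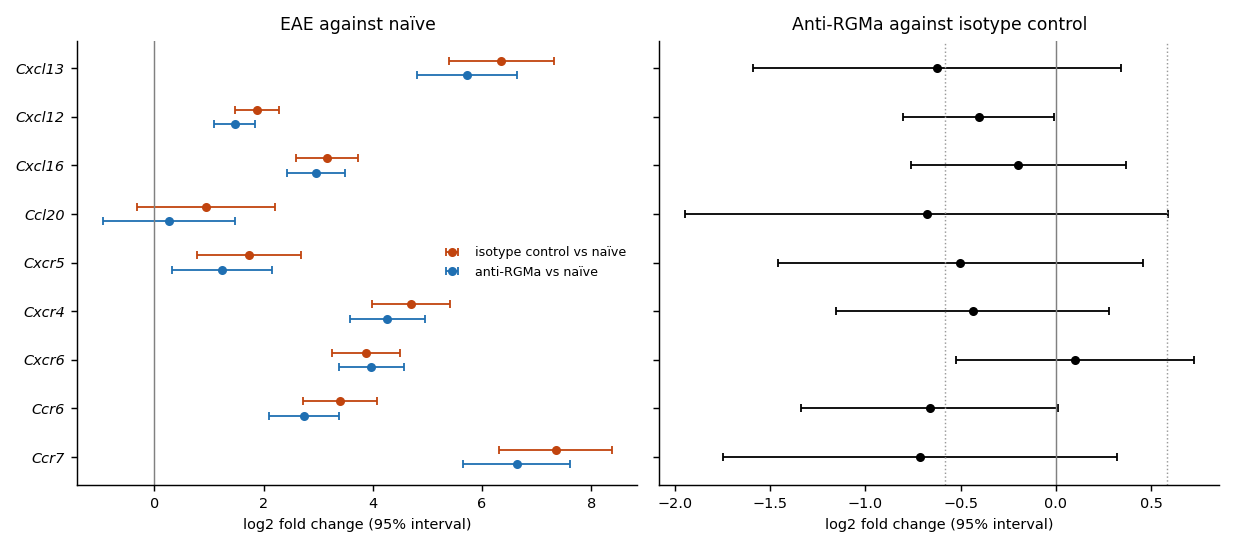
Log2 fold changes of the 9 genes with 95% intervals of limma's fit, for EAE against naïve (left; isotype control and anti-RGMa share the naïve arrays) and for anti-RGMa against isotype control (right; dotted lines mark a fold change of 1.5). Ccl20 is the gene whose intervals against naïve include 0, and between the antibodies every interval but that of Cxcl12 includes 0.

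The nearest to a call were Cxcl12 and Ccr6. In all 6 anti-RGMa mice Cxcl12 lay below the isotype control mean, by -0.41 on average (95% interval -0.80 to -0.01, p = 0.0456, adjusted p = 0.312 by limma; exact permutation p = 0.0519), but the 1.32-fold difference stayed under 1.5. Ccr6 lay below it in 5 of 6 mice, by -0.66 (95% interval -1.34 to 0.01, p = 0.0535, adjusted p = 0.324 by limma), with an exact permutation p of 0.0303 (0.0511 adjusted over the 27 exact tests). Among the alternatives Ccr6 passed the study's threshold in several, and Ccr7, Cxcr4 and Ccl20 in 1 or 2 each, as given with the processing.

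Cxcl13 was lower by -0.63 (95% interval -1.59 to 0.34, exact permutation p = 0.242) and Ccr7 by -0.71 (-1.75 to 0.32, exact permutation p = 0.156), in 5 of 6 mice each. Cxcr5 differed by -0.50 (-1.46 to 0.46), Cxcr4 by -0.44 (-1.15 to 0.28) and Ccl20 by -0.68 (-1.95 to 0.59), the last between signals at background. Cxcl16 differed by -0.20 (-0.76 to 0.37) and Cxcr6 by 0.10 (-0.52 to 0.72), the gene of the 9 above 0. The intervals of these probe sets reach past a fold of 1.5 downward for all but Cxcr6, so that a reduction of that size is not excluded by these arrays for those 8 genes. That of the other Cxcr6 probe set, 1422812_at (-1.14 to 0.89), reaches past it as well. Those of the other Cxcl12 probe sets, 1417574_at (-0.34 to 0.28) and 1439084_at (-0.05 to 2.18), do not. With isotype control replicates 3, 4 and 5 left out, the choice being made after seeing the data, Cxcr4 was lower by -1.01 and passed the study's threshold, with 2 isotype control arrays left.

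Of the genes, 4 have several probe sets. The second Cxcl13 probe set (1448859_at) rose by 4.30 and that of Cxcl16 (1449195_s_at) by 4.79 between naïve and isotype control, and the second of Cxcr6 (1422812_at) by 7.37 from naïve signals at background. The naïve means of 1448859_at (6.09) and 1449195_s_at (5.78) also lay below the highest Y-linked signal of 6.25, with naïve arrays up to 6.68 and 6.67. Between the antibodies these second probe sets of Cxcl13, Cxcl16 and Cxcr6 differed by -0.67, -0.45 and -0.12. For Cxcl12, probe set 1417574_at rose by 0.65 (adjusted p = 0.00162), less than the 1.88 of the probe set above, and differed by -0.03 between the antibodies. Its other probe set, 1439084_at, differed by -0.64 (adjusted p = 0.343) and 1.06 (adjusted p = 0.387) in these comparisons, on naïve signals at background. The Cxcl12 difference between the antibodies is therefore seen in 1 of 3 probe sets, and averaging the 3 gave 0.21.

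**Figure D3:**
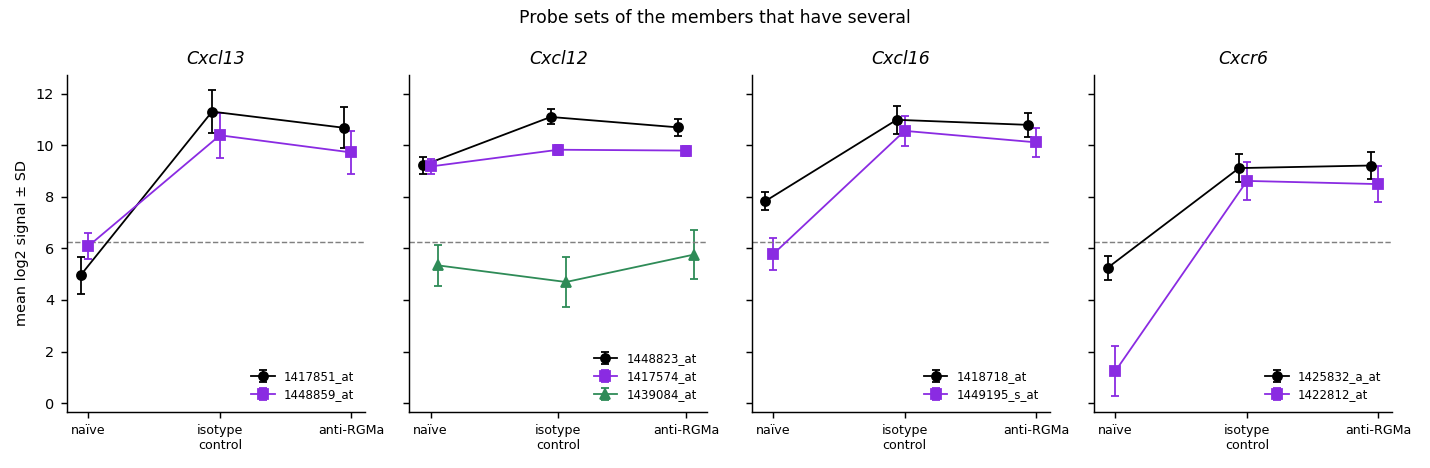
Mean log2 signal ± SD of each probe set of the 4 genes that have more than 1, by group; the dashed line is the highest Y-linked signal. The probe sets of Cxcl13, Cxcl16 and Cxcr6 rise together from naïve to EAE. For Cxcl12, 1448823_at rises most, 1417574_at less, and 1439084_at stays near the background.

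Across the 11 EAE arrays the genes shared part of their order of the mice, and the agreement of the orders was not computed. Isotype control replicate 1 was highest for 6 of the 9 genes (Cxcl13, Cxcr5, Ccr7, Cxcl12, Cxcr4 and Ccr6) and anti-RGMa replicate 2 lowest for 6 (Cxcl13, Cxcr5, Ccr7, Cxcl12, Cxcr4 and Cxcl16). Anti-RGMa replicate 6 ranked 1 for Cxcr6 and 2 for Cxcr4 and Cxcl16, yet ranked 7 for Cxcr5 and 8 for Ccr7 and Ccr6.

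Of the 4 ligand and receptor pairs that could be computed, signals of Cxcl13 and Cxcr5 had r = 0.78 (permutation p = 0.00383, adjusted over the 4 pairs 0.00766; rho = 0.79, p = 0.00534) and those of Cxcl16 and Cxcr6 had r = 0.80 (p = 0.00267, adjusted 0.00766; rho = 0.68, p = 0.0246) by permutation. Cxcl12 and Cxcr4 had r = 0.58 (permutation p = 0.0629; rho = 0.53, p = 0.101), and Ccl20 and Ccr6 r = -0.06 (permutation p = 0.856; rho = 0.21, p = 0.536). Every Ccl20 signal lay below the highest Y-linked one, so that the last pair cannot show whether ligand and receptor run together. Cxcr5 exceeded that level in 3 of 5 isotype control and 3 of 6 anti-RGMa arrays, so the first r rests partly on background values. With the group means taken out, the first 2 pairs had r = 0.75 and 0.85 (adjusted permutation p = 0.0194 and 0.00436). Their rho was then 0.61 and 0.70 (adjusted permutation p = 0.102 and 0.0816), so that neither passed by rank. Without the 2 arrays farthest from the median of the ligand, r was 0.61 for Cxcl13 and Cxcr5 and 0.54 for Cxcl16 and Cxcr6 (adjusted permutation p = 0.274 for each), so that neither passed over the 9 arrays left. The arrays left out were anti-RGMa 2 and isotype control 1 for the first pair and isotype control 5 and anti-RGMa 6 for the second. With any single array left out, r was at least 0.71 for the first pair and 0.72 for the second. Within the 6 anti-RGMa arrays r was 0.66 and 0.72, with an adjusted permutation p of 0.184 for each, and rho was 0.60 and 0.31. No value was computed over the 5 isotype control arrays alone. Nor was one computed for a ligand with a receptor other than its own, so that these r are not shown to be particular to the pairs. Over the same 11 arrays the most alike of 10100 genes reached r = 0.94 with Cxcl13 (Cnot9) and 0.99 with Cxcl16 (Limd2).

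**Figure D4:**
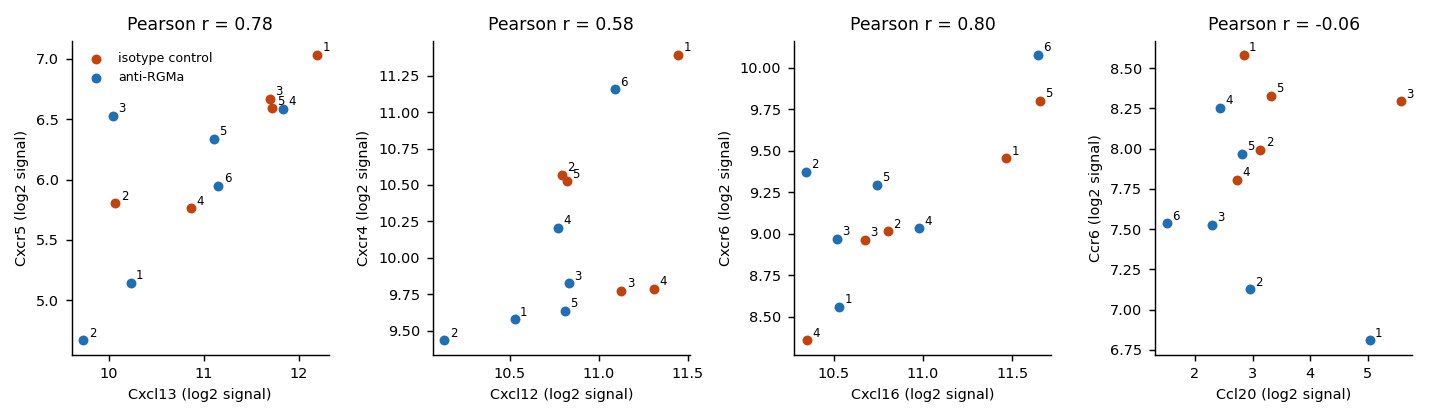
Log2 signal of each ligand (horizontal) and its receptor (vertical) in the 11 EAE arrays, with replicate numbers beside the points. Cxcl13 with Cxcr5 and Cxcl16 with Cxcr6 run together, with isotype control 1 and anti-RGMa 2, or anti-RGMa 6 and isotype control 5, at the ends. No such run is seen for Ccl20 with Ccr6, but every Ccl20 signal lies below the highest Y-linked one. Ligands were not set against receptors other than their own.

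The genes most alike to each of the 7 members whose isotype control mean was at least 8 over these 11 arrays were sought among 10100 genes whose log2 signal averaged 8 or more, as a description with no test. For Cxcl13 they were Cnot9 (r = 0.94) and the cell division genes Ube2c and Birc5 (0.93 each). Ccr7 ran with H2-Ob, an MHC class II gene of B cells, Btla, a lymphocyte inhibitory receptor, and Ube2c (0.93 each). By rank these were less alike, with rho of 0.92 for H2-Ob, 0.68 for Btla and 0.82 for Ube2c. Ccr6 ran with Traf1, an adaptor of TNF receptors (0.97), Mefv (0.95) and Ifitm1 (0.93). Cxcl16 ran with Limd2 and Vamp8 (0.99 each) and the integrin chain gene Itgal (0.98), and Cxcr4 with Rock1 (0.98), Fermt3, which encodes the leukocyte integrin activator kindlin-3, and Bcl10 (0.97 each). The nearest to Cxcl12 were Slc30a5 and the macrophage mannose receptor gene Mrc1 (0.96 each) and the matrix gene Ecm1 (0.95), and to Cxcr6 Ncoa2 (0.94), Eya3 and the cytotoxic lymphocyte protease gene Ctsw (0.92 each). All arrays share the global scaling, and their macrophage marker means, given at the end, also differed from mouse to mouse.

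Other genes of lymphoid homing and lymphoid tissue were taken from a list of ligands, receptors, enzymes and signalling genes. Of 63 listed genes, 52 were measured. In isotype control against naïve cord 41 were higher (24.6% of all genes) and 1 lower (27.2%), with a median log2 difference of 1.43. In anti-RGMa against naïve cord 38 were higher (20.3% of all genes) and 0 lower (21.6%), with a median of 1.09. The group counts below are of the first comparison, with the same share of 24.6% higher over all genes. Over the alternatives the count of 41 ran from 35 (mean of probe sets) to 42. It was 36 with isotype control replicates 3, 4 and 5 left out. A mean at or below the highest Y-linked signal was found for 20 of the 52 in naïve cord and still for 9 in isotype control cord. Beside several of the former the difference with the offset of 32 is given. The lymphotoxin group had 6 of 7 higher. Ltb, a subunit of the lymphotoxin that organises lymphoid stroma, rose by 6.00 (4.77 with the offset of 32), the receptor genes Ltbr and Tnfrsf1a by 1.78 and 2.03 (SE 0.12), and Relb of the non-canonical NF-kB pathway by 2.57. Map3k14, the kinase of that pathway, differed by 0.41 (adjusted p = 0.0572).

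Among venule and stroma genes 5 of 8 were higher. Glycam1, an L-selectin ligand of high endothelial venules, went from a mean log2 signal of 1.60 in naïve to 8.71 in isotype control mice, a difference of 7.11 (3.68 with the offset). Pdpn, of lymphoid stroma, rose by 2.15 (SE 0.14) and the receptor gene for IL-7, Il7r, by 4.76 (3.96 with the offset), whereas Madcam1 (0.31, with the offset 0.19, adjusted p = 0.0880) and Chst4 (-0.78, with the offset -0.36, adjusted p = 0.0594) did not pass. Of the decoy receptors, other ligands and proteases, 8 of 9 were higher, including Ackr3, a scavenger of CXCL12 (1.41), Ackr4, a scavenger of CCL19 and CCL21 (1.02), Adam10, which sheds CXCL16 (1.13), and Cd74, the invariant chain that also binds MIF (6.10, SE 0.16), while Mif itself differed by -0.09 (adjusted p = 0.451).

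In the oxysterol and sphingosine 1-phosphate group 7 of 9 were higher and 1 lower. Ch25h, the first enzyme of the EBI2 ligand, rose by 3.49 and Gpr183, which encodes EBI2, by 2.74 (2.16 with the offset), and S1pr1, the egress receptor, fell by 0.38, a call that was lost with isotype control replicates 3, 4 and 5 left out. Among the genes of receptor signalling 9 of 10 were higher, with the hematopoietic GTPase gene Rac2 at 4.10 (SE 0.20) and the desensitiser Rgs1 at 4.15 (3.22 with the offset). Of B cell survival genes, 2 of 4 rose: Tnfsf13b, the BAFF gene (1.25), and a receptor gene for it, Tnfrsf13b (2.60). Of the helper T cell genes, 4 of 5 rose, Icos by 4.85 (3.51 with the offset), Pdcd1 by 4.58 (1.87), Il17a by 2.76 (1.37) and Bcl6 by 0.61, the first 3 from naïve means at background. Il21 differed by 0.37 (0.13 with the offset, adjusted p = 0.726).

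Between the antibodies, 3 of the 52 genes were lower by the study's threshold (2.72% of all genes) and 0 higher (1.22% of all genes). All 3 belong to the oxysterol and sphingosine 1-phosphate group. The groups were listed with earlier results of these data known, so that this concentration is not independent of them. None of the 52 passed an adjusted p under 0.05. The median was -0.26. Sphk1, which makes sphingosine 1-phosphate, had mean log2 signals of 7.52 in naïve, 8.12 in isotype control and 7.41 in anti-RGMa mice, a difference between antibodies of -0.71 (SE 0.17, adjusted p = 0.184 by limma). Klf2, a factor for S1pr1 and lymphocyte quiescence that is also active in endothelium, was 8.41, 10.09 and 9.39 (-0.71, SE 0.17, adjusted p = 0.188), and Ch25h differed by -0.61 (SE 0.27, adjusted p = 0.308). With the offset of 32 Ch25h was at -0.58, short of the fold of 1.5, and 2 of the 52 genes were lower. Adam10 (-0.38, adjusted p = 0.238 by limma) and Gnai2, the Gi subunit of chemokine receptors (-0.32, adjusted p = 0.282), fell short of the fold of 1.5. Il17a, at -0.64 (adjusted p = 0.496 by limma) or -0.45 with the offset of 32, passed neither rule. It lay lower in every anti-RGMa array than in every isotype control array, against 0.566% of all genes lower without overlap. Its signals were close to background, with means of 6.54 in isotype control and 5.91 in anti-RGMa mice against the highest Y-linked signal of 6.25.

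**Figure D5:**
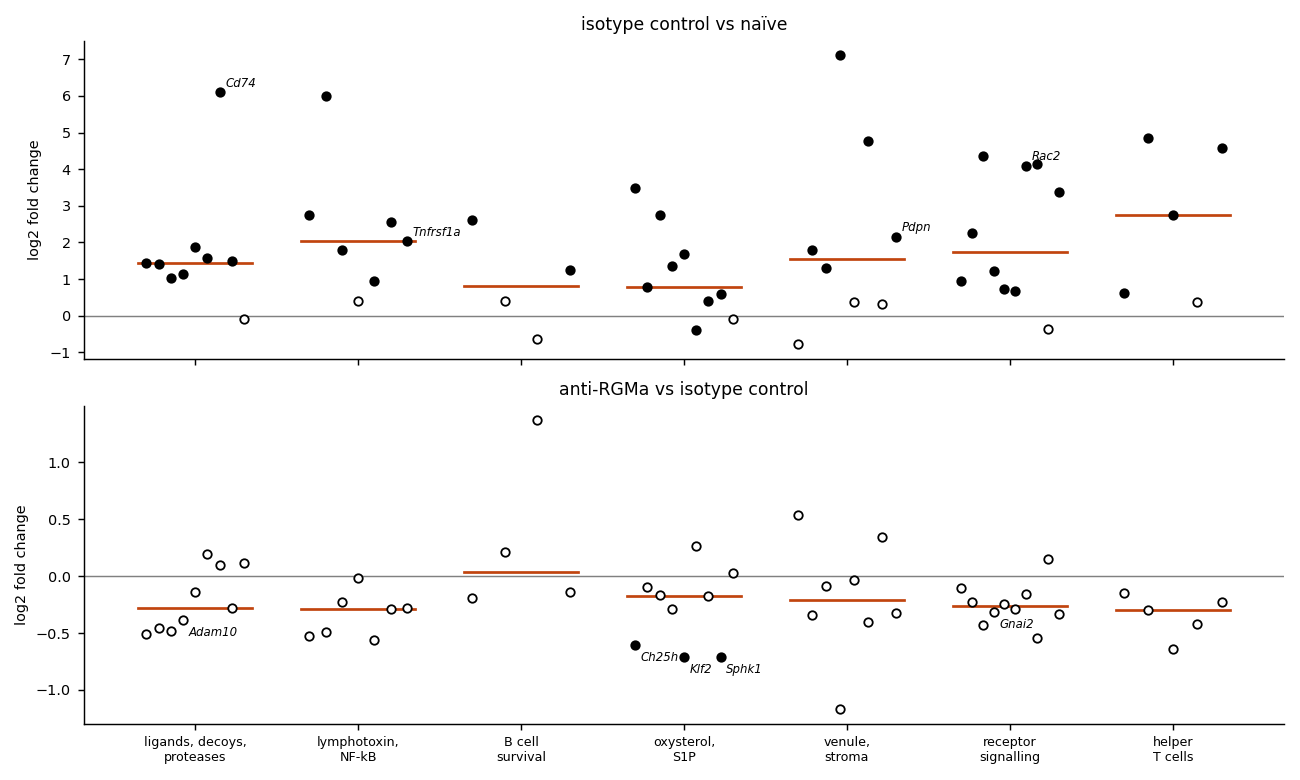
Log2 fold changes of the 52 measured genes of lymphoid homing and organisation, in 7 groups, for isotype control against naïve (above; filled, adjusted p under 0.05) and anti-RGMa against isotype control (below; filled, fold change over 1.5 with an unadjusted p under 0.05). Lines are group medians, and names mark the 4 genes with the smallest p in each comparison and the filled ones below. All filled points in the upper plot but S1pr1 are above 0, and the 3 filled points in the lower plot, Sphk1, Klf2 and Ch25h, lie below it.

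Most markers of the cells that carry these receptors were higher in EAE as well. Of all genes, 24.6% were higher in isotype control and 20.3% in anti-RGMa than in naïve cord by adjusted p. Mean log2 signals of 7 B cell markers ranged from 4.48 to 5.34 in naïve, from 7.09 to 8.30 in isotype control and from 6.59 to 7.55 in anti-RGMa arrays, and all 7 were higher in isotype control than in naïve cord. Those of 10 T cell markers ranged from 4.08 to 4.61, from 7.47 to 8.50 and from 7.35 to 8.35, with 9 of 10 higher. The 10 macrophage and monocyte markers ranged from 6.36 to 7.39, from 10.41 to 11.28 and from 9.80 to 11.02, with 10 of 10 higher. The 6 dendritic cell markers ranged from 7.13 to 7.73, from 8.58 to 8.89 and from 8.40 to 8.86, with 5 of 6 higher and 1 lower in each EAE group.

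Fibroblast and meningeal markers, of cells that can make CXCL12 and CXCL13, ranged from 9.23 to 10.24 in naïve, from 10.73 to 12.77 in isotype control and from 9.25 to 11.15 in anti-RGMa arrays. All 7 were higher in isotype control than in naïve cord, and 5 of 7 were lower with anti-RGMa by the study's threshold. The highest means were those of isotype control replicates 3 (12.39) and 4 (12.77), which also had high skeletal muscle signals. Replicate 5, high in muscle as well, had the lowest mean of that group (10.73). The part of such tissue in these calls was not tested. Endothelial markers ranged from 7.91 to 8.25, from 8.80 to 9.32 and from 8.38 to 8.86, with 9 of 9 higher in isotype control and 3 of 9 lower with anti-RGMa. By the same threshold, which 2.72% of all genes passed downward and 1.22% upward, 1 of 7 B cell, 2 of 7 plasma cell, 1 of 10 T cell and 3 of 10 macrophage markers were lower with anti-RGMa and 0 higher. Of dendritic cell markers 0 of 6 and of microglia markers 0 of 6 passed in either direction, and 2 of 7 skeletal muscle markers were lower. In isotype control against naïve cord, 4 of 7 plasma cell markers were higher and 1 lower by adjusted p. All 5 neutrophil markers were higher in both EAE groups than in naïve cord, and 0 passed between the antibodies. Of 6 neuron markers, 6 were lower in isotype control and 4 in anti-RGMa than in naïve cord by adjusted p, and between the antibodies 1 was higher with anti-RGMa, with a median over the 6 of 0.46. No signal was 0 on any array. The part of these markers in the values of the homing genes was not tested.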

How the data were processed

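The deposited values are linear signal intensities of Affymetrix Mouse Genome arrays, which the authors computed with MAS5.0 and scaled globally, with 1 array per mouse and no pooling. Per the submitters' processing notes, affy and MAS5 were used. Neither the scaling target nor the affy version is given there or in the methods. The trimmed mean (2% from each end) was about 500 on every array. No detection calls were used, and depth does not apply to arrays, whose number limits the precision.

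The 45101 probe sets comprise 34958 with 1 annotated gene, 932 with several and 9211 with none. Of the first kind, 34754 were matched by gene ID to RefSeq's gene table, which changed 0 symbols. Where a gene had more than 1 (9012 genes), the probe set of highest mean log2 signal stood for it. Log2 signals with no offset and no filter were fitted over the 3 groups together by limma 3.58.1 (lmFit, then eBayes; R 4.3.3), with Benjamini-Hochberg adjustment over 18194 genes. Calls were an adjusted p under 0.05 against naïve and the study's threshold, a fold change over 1.5 with an unadjusted p under 0.05, between antibodies. Single values were compared by exact permutation and pairs by permutation with 100000 resamples, using Python 3.11.15 and scipy 1.17.1. Correlations of ligands and receptors were to be adjusted over 5 pairs, of which 4 could be computed.

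Named were all members with each probe set, the 4 pathway genes with the smallest p in each of 2 comparisons, and the 3 genes most alike to each member whose log2 signal averaged 8 or more with the isotype control antibody. Other pathway genes were named after their values were seen. The members and all lists were chosen with earlier results of these data known. Listed genes with no 1-gene probe set were not analysed here.

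The fit was tested on simulated data for anti-RGMa against isotype control over 18194 genes. Of 100 genes changed by 0.75 log2, 69 were called by the study's threshold and 51 by adjusted p. Of 100 changed by 1.5 log2, 92 and 82 did. Of 17994 unchanged genes, 343 and 6 did. The replicate numbers are not said to pair mice. The correlation of deviations between same-numbered arrays was -0.0641 to 0.0715. Alternatives covered offset, filter, scaling, probe sets, arrays in the fit, variance model, array weights, a replicate block, call rule and each array left out. Figures were drawn with matplotlib 3.10.9.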

Additional observations from a re-analysis of the deposited data

Results flagged for a closer look

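Among 27 combinations of gene and group, 2 had an array set apart from its group by Dixon's test, which marks about 1 in 20 by chance. Ccr7 had a log2 signal of 9.63 in isotype control replicate 1, against 8.44 to 8.76 in the other isotype control arrays. Ccl20 had 5.57 in isotype control replicate 3, against 2.73 to 3.31 in the others, which is still below the highest Y-linked signal.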

How the results depend on the processing

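The count of genes higher than naïve was 7 or 8 of 9 under every alternative in both comparisons, 7 where the filter on dim genes left out Cxcr5 and Ccl20 and, for anti-RGMa, without naïve 2 or 3 or anti-RGMa 3, 4, 5 or 6 (Cxcr5). Between the antibodies, 1 of the 9 genes rather than 0 passed the study's threshold with an offset of 32 (Ccr7, -0.63), with the filter on dim genes, quantile normalization, only the 2 groups in the fit or an intensity trend with robust variance (Ccr6 in each, -0.66 to -0.63), and with isotype control replicates 3, 4 and 5 left out (Cxcr4), an alternative chosen after seeing the data. With single arrays left out the count was 0 to 1: Ccr6 without naïve 3, 4 or 6, isotype control 4 or anti-RGMa 4 or 5, Ccl20 without anti-RGMa 1 and Cxcr4 without anti-RGMa 6. Cxcl12 turned to 0.21 with the mean of its probe sets (exact permutation p = 0.325). Cxcr6, near 0, turned to -0.012 with the mean of its probe sets (exact permutation p = 0.952), to -0.0066 with array weights and to -0.017 with the 3 isotype control arrays left out. With single arrays left out it ran from -0.090 to 0.27, below 0 without isotype control 4 (-0.090) or anti-RGMa 6 (-0.072). Ccl20 in anti-RGMa against naïve turned to -0.17 without anti-RGMa 1.

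With the replicate block, although the numbers do not pair the mice, Cxcr6 was -0.0055 between antibodies and 2 pathway genes rather than 1 were lower in isotype control than naïve cord. The calls of the members did not change in number. That pathway count was also 2 with quantile normalization or arrays centred on their median, 0 with the 3 isotype control arrays left out, and 1 to 2 with single arrays left out. Pathway genes lower with anti-RGMa went from 3 to 0 by adjusted p and to 2 with an offset of 32 (Ch25h lost), arrays centred on their median or the mean of probe sets. They went to 4 with only the 2 groups in the fit, the replicate block or the 3 isotype control arrays left out. With single arrays left out they were 2 to 5 (5 without anti-RGMa 4 or 6), and genes higher were 0 to 1 (1 without anti-RGMa 2 or 6).

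Cxcl12 and Cxcr4 had r = -0.46 with the mean of probe sets. With single arrays left out, r ran from 0.71 to 0.94 for Cxcl13 and Cxcr5, from 0.39 to 0.73 for Cxcl12 and Cxcr4 (0.73 without isotype control 4), from 0.72 to 0.92 for Cxcl16 and Cxcr6, and from -0.36 to 0.41 for Ccl20 and Ccr6 (0.41 without anti-RGMa 1). Without the 2 farthest arrays r was 0.61, 0.15, 0.54 and 0.36.

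Centring moved the median of all genes to -0.18 and -0.14 against naïve (from -0.04 and -0.03), and the share of higher among called genes to 36.9% and 36.5% (from 47.5% and 48.5%). Between the antibodies the study's threshold called 716 genes (31.0% higher), 492 (16.5% higher) with the offset and 425 (21.9% higher) with the filter on dim genes, and the adjusted p called 1 gene (0 to 6 under the settings that kept all arrays). The cause of these changes was not tested.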
